A study of Homo sapiens with 30 samples.

Results

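The question here was what paclitaxel did to the transcriptome of parental SUM190 cells in which the kinases JAK1 and JAK2 were inhibited by ruxolitinib. SUM190 is an established cell line from an inflammatory breast cancer with amplified ERBB2. Of the 30 libraries of poly-A RNA in the series (15 groups of 2), 4 were set against each other by their labels: parental cells in ruxolitinib with 2.5 nM paclitaxel (2 libraries) and parental cells in ruxolitinib alone (2 libraries). The vehicle (DMSO) libraries did not enter this contrast. The labels give ruxolitinib as 15 µM alone and as 15 nM in the combination, and this difference of labelled dose cannot be told apart from the paclitaxel effect by the design. Treatment began 24 h after the cells were seeded and lasted 72 h. The same question was put to 2 other pairs of groups: parental cells in 2.5 nM paclitaxel against parental cells in DMSO, and a paclitaxel-resistant derivative of SUM190 in ruxolitinib with 6.5 nM paclitaxel against the derivative in ruxolitinib (again labelled 15 nM and 15 µM). How the resistant line was derived, and whether it is a clone, is not given in the sources used here, and the parental results come from a single line.

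Paclitaxel binds tubulin and stabilises microtubules, so that the mitotic spindle cannot work normally and dividing cells stall or missegregate their chromosomes. JAK kinases sit on cytokine receptors, such as those of the interleukin-6 family and the interferons, and phosphorylate STAT factors, which enter the nucleus and switch on genes including SOCS3, a feedback inhibitor of the same receptors. NF-kB is a separate family of factors that drives cytokine and chemokine genes, and the SREBP factors drive the enzymes of cholesterol and fatty acid synthesis.

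The 4 libraries held 21486427 to 26051123 reads in genes (18443749 to 32669995 in the series). Levels are in CPM, read counts that the authors scaled to the depth of each library, and where no read was counted the limit of 3 reads lay at 0.0947 to 0.163 CPM in the libraries of the series (counting error only). Replicates correlated at 0.9984 in ruxolitinib and 0.9968 in the combination (Pearson r of log2 values across genes). The difference between replicates followed transcript GC content across genes more closely in the combination (Spearman rho 0.674) than in ruxolitinib (0.211). The combination libraries had 13248 and 13210 genes above 0.2 CPM, against 12894 and 12814 in ruxolitinib, a difference whose part in the results below was not tested. The 7 markers of ERBB2-amplified luminal epithelium summed to 6561 and 6592 CPM in ruxolitinib and to 5708 and 6567 CPM in the combination. Markers of other cell types were low beside these: 4 immune genes summed to 0.095 to 0.534 CPM in ruxolitinib and to 1.131 and 1.258 CPM in the combination, 2 endothelial genes to 2.425 to 3.27 CPM over the 4 libraries, and 6 fibroblast genes to 8.251 to 9.888 CPM, most of it COL1A1, with 2 of the 6 (COL1A2 and DCN) at 0 in all 4. SOCS3 stood at 6.64 and 8.32 CPM in DMSO and 7.996 and 8.68 CPM in paclitaxel alone, against 0.823 and 0.713 CPM in ruxolitinib and 1.40 and 0.953 CPM in the combination. SOCS3 was thus low in all 4 libraries with ruxolitinib, under either labelled dose.

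Under ruxolitinib, members of the lists of inflammatory, interferon-stimulated and immediate early genes were called higher with paclitaxel and none was called lower. Members of the lists of fatty acid and cholesterol synthesis were called lower and none was called higher. Of 12743 genes tested, 554 were called (4.35%), with 369 higher (2.9%) and 185 lower (1.45%) in the combination. A call is a Benjamini-Hochberg adjusted p under 0.05 from limma on log2(CPM + 1), a scale on which the added 1 makes the changes of low genes look smaller. In counts of list members below, rose and fell mean called higher and called lower. Most changes were small: 42 genes rose and 1 fell by at least 1 on the log2 scale, and the median over all tested genes was -0.01. In bulk RNA, fewer cells of a kind and less RNA per cell cannot be told apart. Whether the replicates came from separate cultures is not in the labels: the p-values then reflect the spread of these particular libraries, possibly a technical one, and each gene has 1 spread shared by all 15 groups.

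The number of calls depended on the fit. None of the 554 genes changed direction in any alternative fit that tested it, which is no independent support for them. Fits that kept the values of the 4 libraries kept the difference of group means, and the genes were picked as called in these libraries. Leaving out a library gave 205 calls (without ruxolitinib replicate 1), 200 (without its replicate 2), 224 (without combination replicate 1) and 278 (without its replicate 2). With each library corrected for transcript GC content and length, 840 genes rose and 1090 fell, so 43.5% of the calls were higher, against 66.6% without the correction. Of the 554 genes, 531 were called again. Fitted to the 4 libraries alone, 617 rose and 506 fell.

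**Figure D1:**
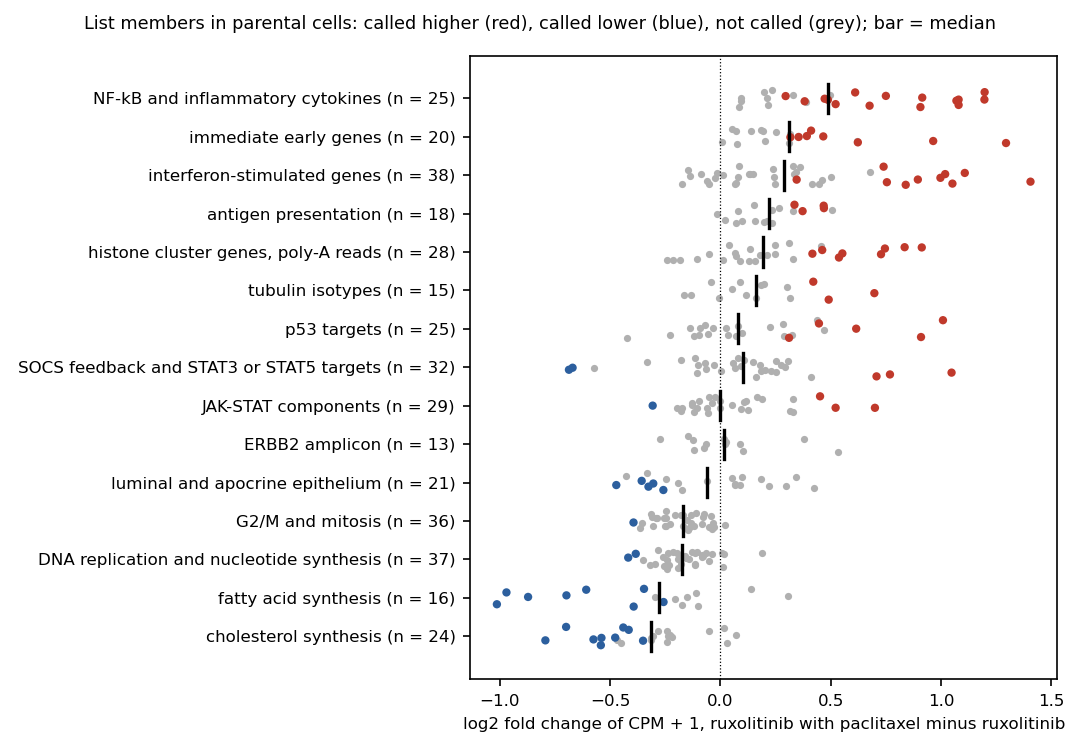
Log2 fold change of each tested member of 15 of the 31 gene lists (x axis, combination minus ruxolitinib in parental cells), with called members in red (higher) or blue (lower), the others in grey and the list's median as a bar. Members of the NF-kB list lie at 0.083 to 1.20 and members of the cholesterol list at -0.79 to 0.071.

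Among the genes that fell were enzymes that make and desaturate fatty acids. Of 16 tested members of this list, 8 fell and 0 rose (median -0.28), against 1.45% and 2.9% of all genes tested. In 14 of the 16 both combination libraries lay below both ruxolitinib libraries, against 26.5% of all genes tested. In 2 both lay above, against 24.1% of all genes, with log2 changes of at most 0.305 that were not called. SCD, the desaturase that makes oleate from stearate, was at 1490 and 1565 CPM in ruxolitinib and at 710.1 and 804.3 CPM in the combination. Its level thus fell to 0.496 of the ruxolitinib mean, a log2 change of -1.01 ± 0.10 (SE, n = 2 libraries per group, adjusted p = 8.23e-07), and it was the only gene called with a fall of at least 1. FASN, the fatty acid synthase, was at 1262 and 1365 CPM in ruxolitinib and at 619.1 and 828.4 CPM in the combination (-0.87 ± 0.15, adjusted p = 0.000714). FADS2, which desaturates polyunsaturated fatty acids, went from 121.6 and 132.4 CPM to 55.38 and 74.54 CPM (-0.97 ± 0.16, adjusted p = 0.000518). In all 3 genes the groups were far apart, and combination replicate 1 was the lower of its pair. The other calls were FADS1, another desaturase (-0.70), SREBF1, which encodes the SREBP factor that drives these enzymes (-0.61), ACSS2 (-0.39) and ACLY (-0.26), which supply acetyl-CoA, and ACACA, the carboxylase of the first committed step (-0.35). Between 4 and 7 of the 8 calls were made when a library was left out. SREBF1 lost its call without ruxolitinib replicate 2 or combination replicate 1, ACACA in 2 of the 4 fits, ACSS2 in 3 and ACLY whichever library was left out.

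Genes of cholesterol synthesis fell as well. Of 24 tested members, 9 fell and 0 rose (median -0.32), against 1.45% and 2.9% of all genes tested. In 20 of the 24 both combination libraries lay below both ruxolitinib libraries, against 26.5% of all genes tested, and in 0 both lay above. INSIG1, a sterol-sensing retention factor for SREBP in the endoplasmic reticulum and itself a target of SREBP, was at 124.8 and 129.4 CPM in ruxolitinib and at 73.03 and 72.71 CPM in the combination (-0.79 ± 0.12, adjusted p = 0.000251). STARD4, a sterol carrier, fell by 0.70 on the log2 scale, MSMO1 by 0.58, LSS by 0.54, FDFT1 (squalene synthase) by 0.54 and HMGCS1, at the entry to the pathway, by 0.44. HMGCS1 was at 172.1 and 172.0 CPM in ruxolitinib and at 131.0 and 122.1 CPM in the combination, without overlap. SQLE, the squalene epoxidase, was not called (-0.23, adjusted p = 0.0784). This list had 4 to 6 calls with a library left out, 3 in a fit to the parental groups alone, and 20 after the GC and length correction. LSS and MSMO1 lost their calls in 3 of the 4 fits without a library and HMGCS1 in 1.

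The SCD and INSIG1 promoters are shown because these genes led the falls in their lists and share a motif. Capitals mark CCAAT (the CCAAT box), or ATTGG where the match is on the other strand, in the 250 bases before the gene's start (RefSeq, GRCh38.p14, 5′ to 3′ on the gene's strand; the read alignment used another build).
SCD, chr10:100346983-100347232, + strand: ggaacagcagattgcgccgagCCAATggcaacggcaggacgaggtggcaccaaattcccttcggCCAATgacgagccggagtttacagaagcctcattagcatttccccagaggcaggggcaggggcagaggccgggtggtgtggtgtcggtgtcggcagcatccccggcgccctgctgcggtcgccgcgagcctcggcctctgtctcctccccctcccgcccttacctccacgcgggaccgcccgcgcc
INSIG1, chr7:155297628-155297877, + strand: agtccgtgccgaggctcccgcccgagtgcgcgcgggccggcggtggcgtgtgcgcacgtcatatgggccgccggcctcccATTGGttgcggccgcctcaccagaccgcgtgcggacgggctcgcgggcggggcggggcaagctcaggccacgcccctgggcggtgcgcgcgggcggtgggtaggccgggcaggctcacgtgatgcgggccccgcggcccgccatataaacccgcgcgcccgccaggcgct
CCAAT on either strand was found in 6 of 7 called cholesterol genes with an entry and in 15 of 18 tested ones (83.3%), against 33.0% of 27305 promoters of the same length. In the fatty acid list it was in 3 of 7 called genes (42.9%) and in 7 of 15 tested ones (46.7%). The FADS2 promoter, not shown, had 0 matches. CCAAT was also in 24 of 31 tested genes of G2/M and mitosis with an entry (77.4%), a list of 36 with 1 call. The share therefore describes the list and not the response. A sterol regulatory element core, TCACNCCAC (either strand, searched after the data were seen), was in 0 of the 7 called cholesterol genes and in 0.875% of all promoters. A match describes letters in this window, not a bound site.

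Inflammatory genes of the NF-kB list rose together. Of 25 tested members, 15 rose and 0 fell, against 2.9% and 1.45% of all genes tested, and the median was 0.49. In 23 of the 25 both combination libraries lay above both ruxolitinib libraries, against 24.1% of all genes. Among the chemokines, IL8 (CXCL8), which attracts neutrophils, was at 199.2 and 199.2 CPM in ruxolitinib and at 473.4 and 376.5 CPM in the combination (1.08 ± 0.18, adjusted p = 0.000577). CCL20, the ligand of CCR6, went from 33.82 and 31.91 CPM to 77.09 and 64.6 CPM (1.08 ± 0.13, adjusted p = 7.67e-06). CXCL2 went from 9.63 and 9.04 CPM to 14.2 and 15.3 CPM (0.61), and the monocyte attractant CCL2, low in ruxolitinib (0.453 and 0.523 CPM), stood at 2.62 and 2.21 CPM in the combination (1.20). Combination replicate 1 was the higher of its pair in IL8, CCL20 and CCL2, and the groups overlapped in none of the 4 chemokines. The cytokines IL1B (1.07) and IL1A (0.75) were low, under 4 CPM in each of the 4 libraries.

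Feedback and survival genes of the same pathway rose as well. BIRC3, an inhibitor of apoptosis and a regulator of NF-kB signalling, was at 179.7 and 170.3 CPM in ruxolitinib and at 450.4 and 360.0 CPM in the combination, a 2.32-fold difference of means (1.20 ± 0.17, adjusted p = 0.000116). TNFAIP3, which encodes the deubiquitinase A20 that ends NF-kB signalling, rose by 0.91 on the log2 scale, the adhesion molecule ICAM1 by 0.92, the mitochondrial superoxide dismutase SOD2 by 0.49, the NF-kB subunit RELB by 0.47 and the inhibitor NFKBIA by 0.30. The last of these was close to the threshold: NFKBIA was at 99.7 and 94.1 CPM in ruxolitinib and at 117.5 and 120.7 CPM in the combination, and lost its call, as RELB did, whichever library was left out. BIRC3, IL8, CCL20, CCL2, IL1B, TNFAIP3 and ICAM1 kept theirs in all 4 such fits, CXCL2, IL1A and SOD2 in 2, and the list had 8 to 10 calls.

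The promoters of 3 of these genes are printed for the kappaB element, here GGG, any 3 bases, then TTCC, searched on both strands after the data were seen. Capitals mark the match; in CXCL2 matches on the 2 strands overlap.
BIRC3, chr11:102317234-102317483, + strand: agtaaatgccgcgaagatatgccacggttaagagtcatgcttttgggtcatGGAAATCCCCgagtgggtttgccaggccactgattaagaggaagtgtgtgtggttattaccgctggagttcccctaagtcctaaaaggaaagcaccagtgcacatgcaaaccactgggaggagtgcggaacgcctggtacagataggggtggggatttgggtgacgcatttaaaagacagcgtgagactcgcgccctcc
CCL20, chr2:227813592-227813841, + strand: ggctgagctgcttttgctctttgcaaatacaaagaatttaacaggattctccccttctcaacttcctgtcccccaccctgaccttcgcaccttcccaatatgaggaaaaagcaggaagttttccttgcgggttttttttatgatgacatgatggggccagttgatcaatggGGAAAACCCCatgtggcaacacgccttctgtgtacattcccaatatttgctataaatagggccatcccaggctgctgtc
CXCL2, chr4:74099196-74099445, - strand: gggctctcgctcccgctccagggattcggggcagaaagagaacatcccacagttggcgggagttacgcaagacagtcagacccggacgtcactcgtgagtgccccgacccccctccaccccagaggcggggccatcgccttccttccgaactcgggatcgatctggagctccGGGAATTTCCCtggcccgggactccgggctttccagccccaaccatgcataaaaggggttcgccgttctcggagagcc
The element was in 12 of 20 tested members with an entry (60.0%) and in 6 of the 11 called ones (54.5%), against 5.61% of all promoters. The members were listed as known NF-kB genes, so the share describes the list and not the response.

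Some of the genes stimulated by interferon, whose induction normally runs through JAK kinases, rose. Of 38 tested, 10 rose and 0 fell (median 0.29), against 2.9% and 1.45% of all genes tested. The log2 change was negative in 8 of the 38. IFIT2, which binds viral RNA and restrains translation, was at 3.87 and 3.09 CPM in ruxolitinib and at 10.5 and 11.1 CPM in the combination (1.41 ± 0.14, adjusted p = 1.42e-06). IFIT1 (1.05), IFIT3 (0.90), the antiviral enzyme RSAD2 (1.11), OASL (1.02) and the chemokine CXCL10 (0.84) were called at levels under 5 CPM. The guanylate-binding protein GBP1 went from 4.03 and 3.47 CPM to 9.78 and 7.32 CPM (1.00). IRF1, a transcription factor of the interferon response that NF-kB also drives, was at 17.5 and 17.8 CPM in ruxolitinib and at 27.3 and 33.4 CPM in the combination (0.74 ± 0.10, adjusted p = 6.03e-05). ISG15 (0.50, adjusted p = 0.0524) was not called. Both IRF1 and GBP1 were lower in the combination than in paclitaxel without ruxolitinib: IRF1 was at 35.1 and 42.6 CPM in DMSO and at 61.7 and 62.5 CPM in paclitaxel alone, and GBP1 at 14.7 and 13.4 CPM and at 17.3 and 16.8 CPM. With a library left out the list had 6 to 9 calls, and CXCL10, OASL and RSAD2 each lost theirs in 2 of the 4 fits and IFIT1 in 1.

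The IRF1 promoter is shown for its gamma-activated site, the palindromic STAT element TTCNNNGAA, in capitals.
IRF1, chr5:132490774-132491023, - strand: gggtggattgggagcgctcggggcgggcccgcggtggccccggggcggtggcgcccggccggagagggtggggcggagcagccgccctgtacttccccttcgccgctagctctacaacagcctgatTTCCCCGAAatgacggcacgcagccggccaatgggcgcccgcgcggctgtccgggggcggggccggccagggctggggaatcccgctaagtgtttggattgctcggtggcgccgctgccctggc
The element was in 6 of 27 tested interferon-stimulated genes with an entry (22.2%) and in 6.78% of all promoters. Of 18 tested genes of antigen presentation, 4 rose and 0 fell (median 0.22), against 2.9% and 1.45% of all genes tested. The 4 were the peptide transporter TAP1 (0.37), the immunoproteasome subunits PSMB9 (0.47) and PSMB10 (0.47) and the aminopeptidase ERAP2 (0.34). With a library left out, 0 or 1 member of this list was called. Of 13 tested cytosolic nucleic acid sensors and related genes, 1 rose, TLR3 (0.58), a receptor for double-stranded RNA, which lost its call in 2 of these fits.

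Most components of the JAK-STAT machinery itself were not called. Of 29 tested components, 3 rose and 1 fell (median -0.0033), against 2.9% and 1.45% of all genes tested. The interleukin-6 receptor chain IL6R was at 32.1 and 31.3 CPM in ruxolitinib and at 52.3 and 52.0 CPM in the combination (0.70 ± 0.08, adjusted p = 3.39e-06). The interferon gamma receptor chain IFNGR2 (0.45) and the cytokine LIF (0.52) rose, and PIAS3, an inhibitor of STAT3, fell (-0.31). The kinases JAK1 (0.12) and JAK2 (-0.13), the factor STAT3 (0.12), the shared receptor chain IL6ST (0.16) and the cytokine IL6 (0.33, adjusted p = 0.208) were not called. LIF and PIAS3 lost their calls in 3 of the 4 fits without a library.

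Among 32 tested SOCS feedback genes and targets of STAT3 or STAT5, 3 rose and 2 fell (median 0.10). The shares over all genes tested were 2.9% and 1.45%. The called members thus went in opposite directions. The acute-phase genes SAA2 (1.05), SAA1 (0.77) and SERPINA3 (0.71) rose. The fibrinogen chains FGB and FGG, acute-phase proteins that form clots, fell. FGB was at 287.3 and 278.8 CPM in ruxolitinib and at 180.4 and 170.5 CPM in the combination (-0.69 ± 0.12, adjusted p = 0.000711), and FGG at 4034 and 4025 CPM and at 2560 and 2502 CPM (-0.67 ± 0.11, adjusted p = 0.000351). The third chain, FGA, was at 1.44 and 1.09 CPM and at 0.437 and 0.610 CPM (-0.57, adjusted p = 0.102) and was not called. SOCS3 (0.29 ± 0.18, adjusted p = 0.425) and BCL3 (-0.18, adjusted p = 0.543) were not called either. SAA1 lost its call in 2 of the 4 fits without a library and SERPINA3 in 1.

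**Figure D2:**
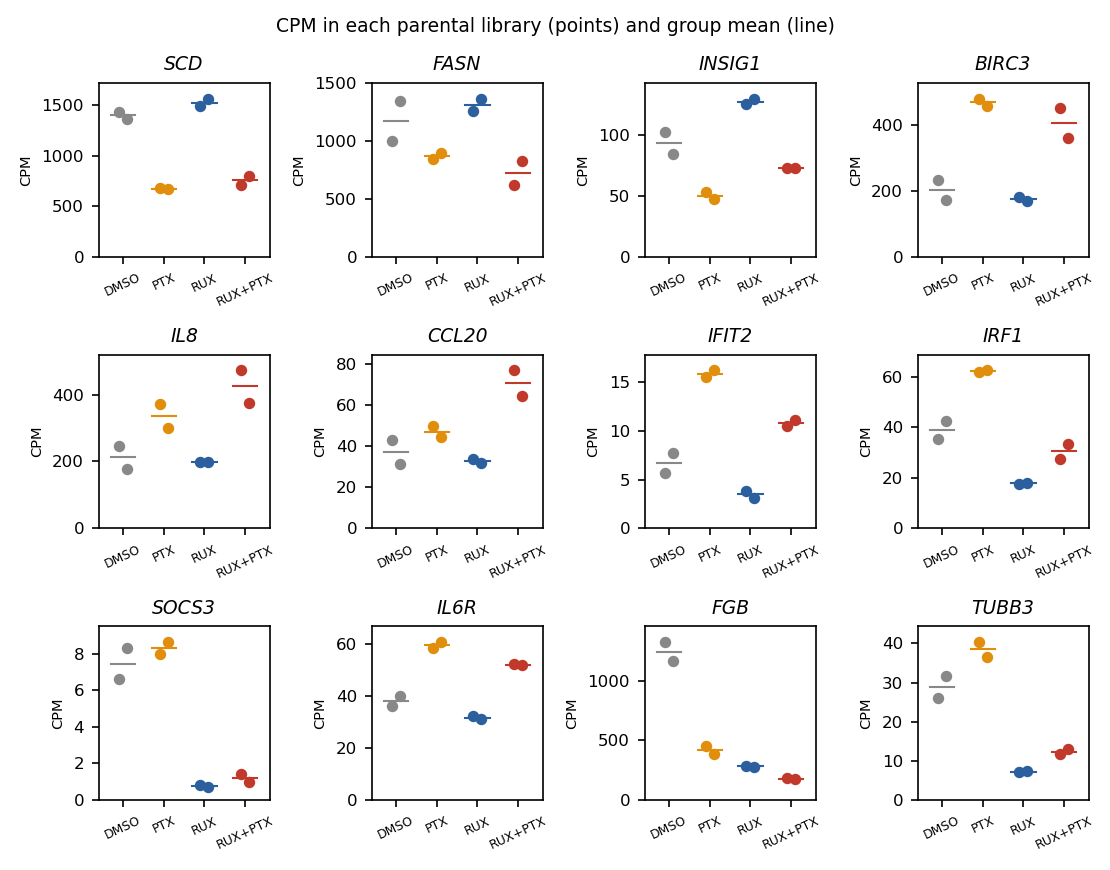
CPM of 12 genes in the 8 parental libraries in DMSO, 2.5 nM paclitaxel (PTX), ruxolitinib (RUX) and ruxolitinib with paclitaxel (RUX+PTX); points are libraries and lines are group means, with axes from 0. SCD lies at 710.1 and 804.3 CPM in the combination against 1490 and 1565 CPM in ruxolitinib, and SOCS3 lies at 0.713 to 1.40 CPM in the 4 libraries with ruxolitinib.

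Immediate early genes, the fast transcription factors and phosphatases of stress and growth-factor signalling, rose: 8 of 20 tested, with 0 lower and a median of 0.31. The shares over all genes tested were 2.9% higher and 1.45% lower. ATF3, a stress-induced repressor, was at 15.0 and 16.3 CPM in ruxolitinib and at 40.1 and 39.6 CPM in the combination (1.30 ± 0.12, adjusted p = 5.96e-07). FOSL1 (0.96), the MAP kinase phosphatase DUSP5 (0.62), KLF6 (0.47) and JUN (0.41) were also called. MAFF, a small MAF factor outside this list, went from 9.30 and 8.37 CPM to 21.7 and 24.6 CPM (1.30). The list had 5 to 8 calls when a library was left out, and JUN lost its call in each case.

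Of 25 tested p53 targets, 5 rose and 0 fell, with a median of 0.08, against 2.9% and 1.45% of all genes tested. GDF15, a secreted stress cytokine, went from 63.7 and 65.0 CPM to 115.5 and 128.2 CPM (0.91 ± 0.09, adjusted p = 1.93e-06), and the growth-arrest gene GADD45A from 15.5 and 14.5 CPM to 32.45 and 29.99 CPM (1.01). The cell cycle inhibitor CDKN1A (0.45), the death receptor TNFRSF10B (0.31) and PLK3 (0.62) rose, while MDM2 (-0.06) and the killer gene BBC3 (0.44, adjusted p = 0.204) were not called. Of 15 tested genes of the BCL2 family, 2 rose: BCL2A1, a survival factor and NF-kB target, from 0.823 and 0.951 CPM to 2.14 and 2.93 CPM (0.90), and PMAIP1, which encodes the pro-death protein NOXA (0.89). CDKN1A lost its call in 3 of the 4 fits without a library, PLK3 in 2, PMAIP1 in 1 and TNFRSF10B in all 4.

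Calls in the other stress lists stand beside 2.9% of all genes tested called higher and 1.45% called lower. Of 25 genes of the integrated stress response, the phosphatase subunit PPP1R15A rose (1.03) and DDIT4, an inhibitor of mTORC1, fell (-0.40). Of 17 tested xenobiotic-response genes, 3 rose: HMOX1, the haem oxygenase, from 67.7 and 69.4 CPM to 135.0 and 160.5 CPM (1.09 ± 0.11, adjusted p = 1.93e-06), CYP1A1 (0.80) and TXNRD1 (0.29). Of 17 heat shock genes, 1 rose, the small chaperone HSPB8 (0.83). Of 21 tested lysosome and autophagy genes, 4 rose: the autophagy receptor SQSTM1 (0.55), MAP1LC3B (0.66) and GABARAPL1 (0.51) of the autophagosome membrane, and GPNMB (0.84), which stayed under 2 CPM. Of 20 genes of the endoplasmic reticulum stress response, CALR (-0.21) and XBP1 (-0.47) fell. CALR lost its call in all 4 fits without a library, DDIT4 and TXNRD1 in 3 and GABARAPL1 in 1.

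Tubulin and microtubule genes encode the target of paclitaxel and its partners. Of 15 tested tubulins, 3 rose and 0 fell (median 0.16), against 2.9% and 1.45% of all genes tested. TUBB3, the neuronal beta-tubulin, was at 7.12 and 7.23 CPM in ruxolitinib and at 11.7 and 12.9 CPM in the combination (0.70 ± 0.11, adjusted p = 0.000328), against 26.0 and 31.6 CPM in DMSO and 40.4 and 36.6 CPM in paclitaxel alone. TUBB2A (0.49) and TUBA1A (0.42) rose, and TUBB, the main beta-tubulin by reads, did not pass (-0.04, adjusted p = 0.836). Of 24 tested microtubule-associated genes, MAP1B, a stabiliser of neuronal microtubules, rose from 9.46 and 9.70 CPM to 25.03 and 22.98 CPM (1.24 ± 0.15, adjusted p = 7.54e-06), and STMN1, the microtubule destabiliser stathmin, fell by 0.24. TUBA1A and STMN1 lost their calls whichever library was left out, and TUBB2A in 2 of the 4 cases.

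Cell cycle genes were slightly lower almost throughout, with few calls. Of 36 genes of G2/M and mitosis, 35 had negative log2 changes, and the median was -0.17, against -0.01 over all tested genes. In 30 of the 36 both combination libraries lay below both ruxolitinib libraries, against 26.5% of all genes tested. Only SPC25, a kinetochore subunit, was called (-0.40), 1 of the 36, against 1.45% of all genes tested called lower. ASPM, which organises spindle poles, was at 213.8 and 215.5 CPM in ruxolitinib and at 171.7 and 153.8 CPM in the combination (-0.40 ± 0.16, adjusted p = 0.178). TOP2A was at 350.6 and 339.7 CPM and at 279.7 and 260.1 CPM (-0.35, adjusted p = 0.117), and the mitotic cyclin gene CCNB1 at 314.4 and 305.1 CPM and at 280.8 and 291.8 CPM (-0.11, adjusted p = 0.561). Of 28 spindle checkpoint genes, ZWINT was called (-0.26, median of the list -0.10; 0 calls with a library left out), and of 37 genes of DNA replication and nucleotide synthesis, GINS1 (-0.38) and LIG1 (-0.42) fell (median -0.17). These lists depended on the fit: after the GC and length correction 18 of the 36 G2/M genes and 20 of the 37 replication genes fell, in the 4 libraries alone 11 and 6, and with a library left out 0 and at most 1. Poly-A reads of histone cluster genes, whose main transcripts carry no poly-A tail, were called higher in 8 of 28 (median 0.19). The share over all genes tested was 2.9%. HIST1H1C led them and went from 18.1 and 17.3 CPM to 33.6 and 34.7 CPM (0.91). The histone list had 2 to 5 calls when a library was left out.

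Markers of epithelial identity and the lists after them are set beside 2.9% of all genes called higher and 1.45% called lower. Of 21 tested luminal and apocrine genes, 5 fell (1 to 3 with a library left out) and 0 rose (median -0.06), among them the secretory factor XBP1 (-0.47), the pioneer factor FOXA1 (-0.36), the receptor ERBB3 (-0.33) and AGR2 (-0.30). FOXA1 and AGR2 lost their calls whichever library was left out, and ERBB3 in 2 of the 4 cases. Of 13 tested genes of the ERBB2 amplicon 0 were called (limma, median 0.02), with ERBB2 at 2852 and 2902 CPM in ruxolitinib and at 2176 and 2602 CPM in the combination (-0.27 ± 0.11, adjusted p = 0.203). Of 20 tested stress keratin and cornified envelope genes, 5 rose (median 0.25; 2 with any of the 4 libraries left out), of 17 mesenchymal and matrix genes 2 rose (1 or 2), and of 24 senescence and growth-arrest genes 1 rose, CDKN1A, and 1 fell, IGFBP5. Hypoxia and glycolysis genes gave 2 higher and 1 lower of 23 tested. Drug efflux genes gave 0 calls of 9 tested, and mitochondrially encoded genes 0 of 13 (median -0.125, and -0.284 to 0.0162 with a library left out). The efflux pump gene ABCB1 was at 0 CPM in both ruxolitinib libraries and at 0 and 0.114 CPM in the combination. Of 10 tested markers of stromal, endothelial and immune cells, 2 were called higher, both at or under 1.64 CPM, with 0 or 1 call when a library was left out.

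Other large changes were in enzymes and surface proteins, most of them outside these lists. DHRS2, a short-chain dehydrogenase, rose most of the genes named: it was at 1.19 and 1.28 CPM in ruxolitinib and at 7.16 and 7.85 CPM in the combination (1.93 ± 0.16, adjusted p = 1.66e-07). HDAC9, a class IIa histone deacetylase, went from 3.17 and 2.81 CPM to 10.4 and 7.70 CPM (1.32), and the carboxylesterase CES1 from 2.72 and 2.14 CPM to 7.77 and 7.51 CPM (1.34). The sulfotransferase SULT1B1 (1.19), the actin-bundling protein FSCN1 (1.17), the elastase inhibitor PI3 (1.16), the integrin chain ITGB8 (1.15), the interleukin-1 receptor kinase IRAK2 (1.14) and the sodium channel subunit SCNN1G (1.11) also rose, and the groups overlapped in none of them. Among lower genes, IGFBP5 of the growth-arrest list, which binds insulin-like growth factors, was at 357.5 and 351.1 CPM in ruxolitinib and at 185.8 and 221.9 CPM in the combination (-0.80 ± 0.10, adjusted p = 1.21e-05). The glutamine synthetase GLUL, at 543.8 and 542.5 CPM, fell to 308.9 and 353.4 CPM (-0.72), and HEPHL1, a copper oxidase, from 398.1 and 397.3 CPM to 256.9 and 235.6 CPM (-0.69). The matrix protein MGP (-0.85), the proline dehydrogenase PRODH (-0.78), HPGD, which degrades prostaglandins (-0.74), the monocarboxylate transporter SLC16A7 (-0.71) and the sugar transporter SLC2A12 (-0.70) fell too. MGP lost its call in 2 of the 4 fits without a library, SLC2A12 in 2 and HPGD in 3. ALPPL2, a placental-type phosphatase named here after its values were seen, was the only gene under the floor of 3 reads in both ruxolitinib libraries and above 1 CPM in both combination libraries (2.01 and 1.49 CPM), and no gene showed the reverse.

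Paclitaxel alone, without ruxolitinib, changed these genes in largely the same directions. In that comparison, which shares no library with the one above, 3414 of 12743 genes were called (26.8%), 1237 higher (9.71%) and 2177 lower (17.1%). Of the 369 genes that rose under ruxolitinib, 354 had the same sign without it (95.9%) and 248 were called in the same direction; of the 185 that fell, the numbers were 174 (94.1%) and 135. Their medians were 0.56 and -0.42 under ruxolitinib and 0.42 and -0.38 without it. Seen from the other side, 20% of the genes that rose and 6.2% of those that fell in paclitaxel alone were called under ruxolitinib. Their medians there were 0.20 and -0.14, against 0.46 and -0.39 in paclitaxel alone. Each set of genes was picked by its calls in a single comparison, which favours larger changes there, so these medians do not compare the sizes of the effects. Over all 12743 genes the changes with and without ruxolitinib correlated at a Spearman rho of 0.512. The calls without ruxolitinib rest on the DMSO pair, whose replicates differed along GC content (Spearman rho 0.784): leaving out DMSO replicate 1 gave 476 calls, its replicate 2 gave 5172, and paclitaxel replicate 2 gave 535.

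The direct test of the difference between the effects with and without ruxolitinib called 0 genes (limma), with 1515 at an unadjusted p under 0.05, a smallest adjusted p of 0.134 and 0 calls with voom on the recovered reads. The 95% interval of this difference, not adjusted for the number of genes, had a median half-width of 0.34 on the log2 scale. A call was adjusted over 12743 genes and needed a larger difference than this for a gene of median error. The 0 calls therefore do not exclude differences above 0.34. For SCD the difference was 0.04 (95% interval -0.247 to 0.327), and for INSIG1 0.08 (-0.274 to 0.439). FGB fell from 1334 and 1169 CPM in DMSO to 452.0 and 384.3 CPM in paclitaxel alone, a change of -1.58, which differed from that under ruxolitinib by 0.89 (0.555 to 1.23, adjusted p = 0.134). CCL20 (0.35 without and 1.08 with ruxolitinib), IL1B (0.27 and 1.07), BCL2A1 (0.03 and 0.90) and GBP1 (0.26 and 1.00) had larger changes under ruxolitinib, with differences of 0.73 to 0.87 that were not called (adjusted p of 0.232 to 0.325). These were picked for their size: over the 25 tested genes of the NF-kB list the difference was positive in 12 and negative in 13 (median -0.0096, from -0.494 to 0.806). For the G2/M list, 25 of 36 genes fell without ruxolitinib (median -0.36) and 1 fell with it (median -0.17), and no member was called for the difference. Across genes the difference between the effects followed transcript GC content (Spearman rho -0.675 over 12149 genes), and after the GC and length correction 6 genes were called for it. Without DMSO replicate 2 there were 4 calls, and without paclitaxel replicate 1 there were 12.

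**Figure D3:**
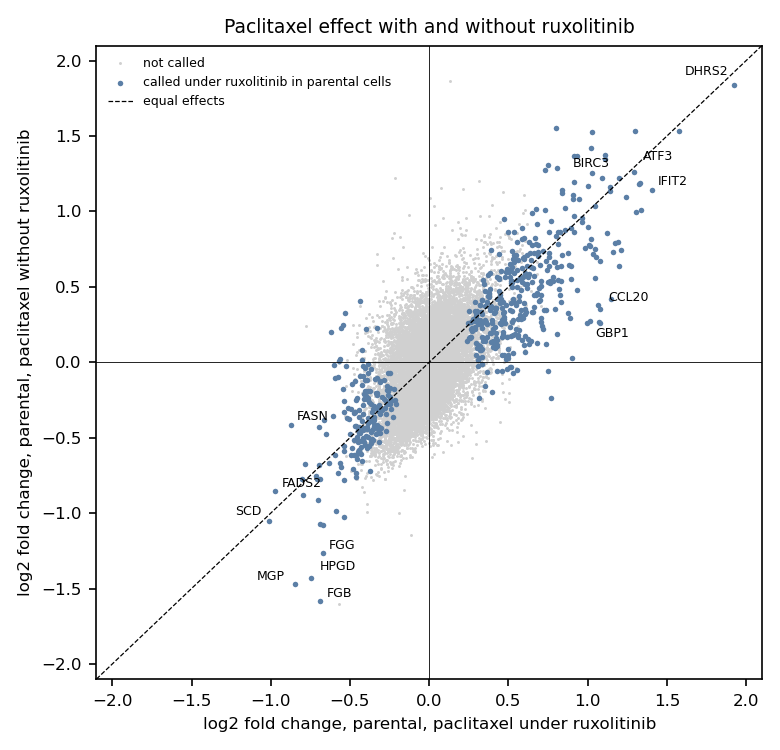
Log2 fold change for paclitaxel under ruxolitinib (x axis) against that for paclitaxel without ruxolitinib (y axis) for 12743 genes in parental cells, with the 554 genes called under ruxolitinib in blue and the dashed line marking equal effects. SCD lies close to the line, while FGB and FGG lie below it and CCL20 and GBP1 below it on the positive side.

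Fewer genes were called in the paclitaxel-resistant line at its own, higher dose. In ruxolitinib with 6.5 nM paclitaxel against ruxolitinib, 5 of 12743 genes were called (0.0392%), all higher: the interleukin-1 antagonist IL1RN (0.63), MAP1B (0.88), GDF15 (0.61), the stress keratin KRT16 (0.67) and TUBA1A (0.52), with 626 genes at an unadjusted p under 0.05. MAP1B, GDF15 and TUBA1A were also called in parental cells. There was 1 call without resistant ruxolitinib replicate 2 and 0 without any of the other 3 libraries. Of the genes called in parental cells, 345 of 369 (93.5%) and 159 of 185 (85.9%) had the same sign in the resistant line, with medians of 0.18 and -0.10 there. These genes were picked by their parental calls, which favours larger changes in parental cells, so the medians do not compare the sizes of the responses. Over all 12743 genes the changes in the lines correlated at a Spearman rho of 0.317. The lines received different doses, so line and dose cannot be told apart here.

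The test of the difference between the lines called 14 genes (0.11%), 11 with a higher (0.0863%) and 3 with a lower (0.0235%) log2 change in parental cells. SCD fell by 1.01 in parental cells and by 0.30 in the resistant line, a difference of -0.72 (95% interval -1.0 to -0.429, adjusted p = 0.0304). MAFF, at 19.7 and 19.5 CPM in ruxolitinib and 19.9 and 20.6 CPM in the combination in the resistant line, differed by 1.25 (0.856 to 1.65, adjusted p = 0.0046). CES1 was at 12.6 and 14.2 CPM in ruxolitinib and at 14.8 and 11.3 CPM in the combination in the resistant line, above all 4 parental libraries, and differed by 1.38. IFIT2 differed by 1.12, DHRS2 by 1.20 and IL6R by 0.61. For NF-kB genes the differences were not called: BIRC3 changed by 1.20 in parental and 0.40 in resistant cells (difference 0.80, 95% interval 0.298 to 1.31, adjusted p = 0.463), and IL8 by 1.08 and 0.88 (0.20, -0.32 to 0.726). Fits without a library made 1 to 11 calls: 7 without parental ruxolitinib replicate 1, 1 without its replicate 2, 5 and 9 without parental combination replicates 1 and 2, and 3 without resistant ruxolitinib replicate 2 or resistant combination replicate 2. ALPPL2 kept its call in all 8 such fits, MAFF in 7, CES1 in 5, SCD in 2, IFIT2, DHRS2 and IL6R in 1 each, and HSPB8 in 0.

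**Figure D4:**
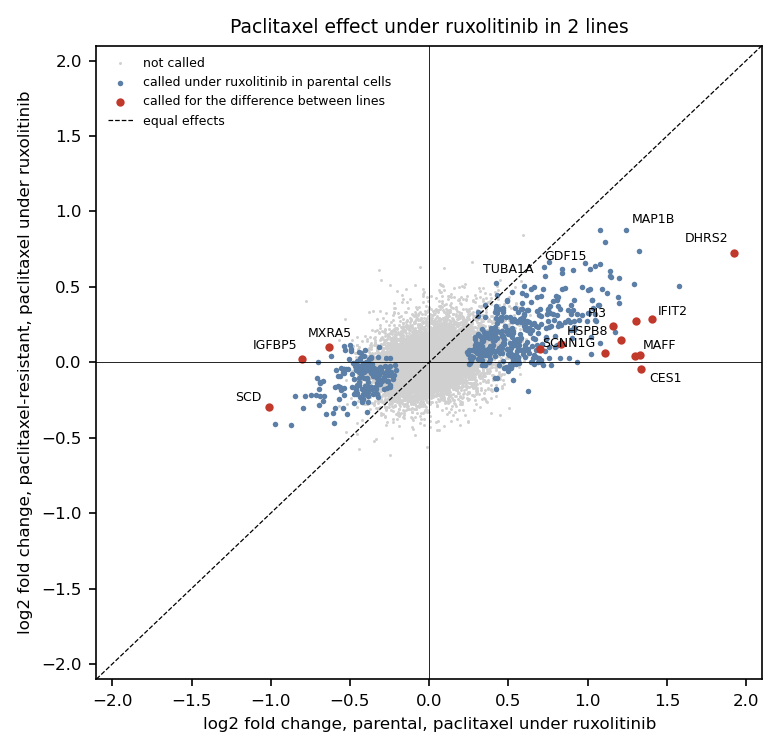
Log2 fold change for paclitaxel under ruxolitinib in parental cells (x axis, 2.5 nM) against the paclitaxel-resistant line (y axis, 6.5 nM) for 12743 genes, with genes called in parental cells in blue and the 14 called for the difference between the lines in red. DHRS2 is at 1.93 and 0.73, and CES1 and MAFF lie near 0 on the y axis.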

How the data were processed

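SUM190 poly-A RNA was sequenced in 30 libraries of 15 groups. The submitters' processing notes name STAR 2.5.1b, edgeR and the build GRCh37 (hg19). A read counter or gene annotation is not given in the sources used. The authors deposited log2(CPM + 1) values, with TMM-scaled CPM, for 20114 gene symbols. All values were whole multiples of a library's step (tolerance 0.01), which gave 18443749 to 32669995 reads per library; no interval beyond counting error follows from them.

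Genes with CPM of 1 or more in 2 or more libraries were kept (12743). The deposited log2 values were fitted in limma 3.58.1 (R 4.3.3) with a means model of 15 groups, trend and robust moderation, 15 residual degrees of freedom and two-sided tests. Calls required a Benjamini-Hochberg adjusted p under 0.05 within each of 5 comparisons. Tables were handled in Python 3.11.15 (pandas 2.3.3, numpy 2.4.6). The procedure was tested on simulated data.

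Members of 31 lists were named where the text needed them, with, for the main comparison, the 15 called genes of largest change in each direction (8 for differences of responses) whose mean CPM reached 5 in a group compared and, for the former, no overlap between groups. The comparison and the lists were chosen with earlier results of these data known. Alternatives changed the pseudocount, filter, scaling, replicate block, groups fitted, moderation and library set, corrected GC content and length (transcripts of another build, found for 95.3% of tested genes), or used voom on the recovered reads; a fit without the parental DMSO group was added after seeing the data. Promoter sequences are RefSeq's (GRCh38.p14). Some genes that the naming rule would cover are not reported here.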

Additional observations from a re-analysis of the deposited data

Results flagged for a closer look

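The paclitaxel response under ruxolitinib differed between parental and paclitaxel-resistant cells, by the test of the difference itself (limma), in 14 genes. Among them, parental minus resistant log2 changes were 1.38 for CES1, 1.28 for ALPPL2, 1.25 for MAFF, 1.20 for DHRS2, 1.12 for IFIT2, 1.05 for SCNN1G, 1.04 for L1CAM, 0.92 for PI3, 0.71 for HSPB8 and 0.61 for IL6R, and -0.72 for SCD, -0.73 for MXRA5 and -0.82 for IGFBP5. L1CAM and ALPPL2 are named because they were called, after their values were seen. The lines received different paclitaxel doses, 2.5 and 6.5 nM, which cannot be told apart from the line.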

How the results depend on the processing

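The 554 calls for paclitaxel under ruxolitinib became 1930 with the GC and length correction, 1895 with that correction and the replicate block, 1123 in the 4 libraries alone, 172 in the parental groups alone (142 up, 30 down), 43 with an absolute log2 change of at least 1 and 200 to 278 with a library left out. Under the other 8 settings they were 496 (replicate block) to 657 (without the parental DMSO group, where all 554 were called again). Paclitaxel without ruxolitinib gave 3414 calls, 1000 in the parental groups alone, 55 at an absolute change of at least 1 and 476 to 5172 with a library left out. The difference with and without ruxolitinib gave 1 call with no filter, 6 with the GC correction, with or without the block, and 0 to 12 with a library left out. In the resistant line the 5 calls became 3 with no filter, 44 with the GC correction, with or without the block, 1 with voom, 0 at an absolute change of at least 1 and 0 to 1 with a library left out. For the difference between lines the 14 became 69 with the GC correction, 59 with the block added, 8 with voom, 8 at an absolute change of at least 1 and 1 to 11 with a library left out. Of 106 called genes named, 59 kept the call in all 4 fits without a library. The sign of 3 uncalled genes turned when a combination library was left out: TUBB ranged from -0.10 to 0.016, JAK2 from -0.28 to 0.020 and MDM2 from -0.16 to 0.049 over the fits without a library. The cause of these changes was not tested. Nothing in the labels ties same-numbered libraries together; their deviations correlated at 0.112 in the parental ruxolitinib groups, 0.27 in parental DMSO and paclitaxel and -0.000888 in the resistant line. The block changed no count of calls by over 1.5 times. edgeR's quasi-likelihood test was not run on the recovered reads, where voom was used instead. With 1 library left in a group, it is assumed to vary like the others.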
